A study of Mus musculus with 6 samples.

Results

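The subject is a set of 10 integrin subunit genes of mouse microglia, chosen by name with earlier results of these data known. The leukocyte subunits were Itgam, Itgax, Itgal and Itgb2, and the matrix subunits were Itga4, Itga6, Itgb1, Itgav, Itgb3 and Itgb5. The set holds 10 of the 27 integrin subunits listed for the mouse and 10 of 55487 genes in the count tables. RNA came from 6 libraries of primary microglia grown from the cortex of P1-3 pups of the line CAG::CreERT2; Nr1d1fl/fl, 3 without Cre (Cre-) and 3 with it (Cre+). All 6 cultures carried the floxed Nr1d1 alleles and received 1.5 µM 4-hydroxytamoxifen (4-OHT), for 2 days by the labels and for a shorter time by the methods of the study, so that the groups shared the drug and differed in Cre. CAG is a broadly active promoter, so recombination was not limited to microglia, and the cells had been shaken off mixed glia that were fed with GM-CSF. The labels number the libraries without naming animals, so each p-value measures the spread between these libraries, which may be partly technical.

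Integrins are adhesion receptors made of 1 alpha and 1 beta chain, which reach the cell surface as a pair. Itgb2 (CD18) is shared by the leukocyte alpha chains Itgam (CD11b), Itgax (CD11c) and Itgal (CD11a), which bind complement fragments, fibrinogen and ICAM proteins and take part in phagocytosis and cell contact. Itgb1, Itgb3 and Itgb5 pair with alpha chains such as Itga4, Itga6 and Itgav to bind fibronectin, laminin, vitronectin, osteopontin and MFG-E8, the last a bridge to dying cells. CD11b is a standard surface marker of microglia, and CD11c is known from subsets of activated microglia.

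The libraries held 87545868 to 110909129 counts on genes. Counts of the targeted gene, Nr1d1, which encodes REV-ERBα, were 204, 111 and 147 in Cre- and 110, 88 and 109 in Cre+ replicates 1, 2 and 3. After scaling by the trimmed mean of M values (TMM) to CPM (counts relative to the size of the library), the groups did not overlap, and the log2 fold change of Cre+ over Cre- was -0.77 ± 0.25 (SE) with an adjusted p of 0.0945 by edgeR's quasi-likelihood test. These counts include reads outside the floxed exons. The 14 microglia markers summed to 7685 to 7920 CPM in Cre- and 7670 to 7980 CPM in Cre+ cultures. Cd68 was the highest of them, at 3879 to 4090 CPM. P2ry12 stayed between 0.401 and 1.03 CPM and Sall1 between 0.335 and 0.903 CPM, so these markers of resting microglia were nearly absent. Of the 11 microglia markers tested, edgeR called 0 and DESeq2 called 0, with 3 at an unadjusted p under 0.05 by edgeR. Over all 11429 genes tested, edgeR called 5.07% and DESeq2 called 886 genes. By edgeR, 19.1% of all genes had an unadjusted p under 0.05.

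Of the 10 subunits, edgeR called 3 at an adjusted p of at most 0.05: Itgax and Itgam were higher and Itgb5 was lower in Cre+ cultures. Over all 11429 genes tested, 5.07% were called (2.50% higher and 2.56% lower), or 286 genes higher and 293 lower. The set was chosen with earlier results of these data known, so this comparison is a description only. With scaling factors taken over all genes before the filter the split was 829 higher and 183 lower, Itgb2 and Itgb3 were called higher as well, and Itgb5 was not called (adjusted p = 0.171). All 10 subunits passed the filter on low counts. The groups did not overlap for 4 subunits (Itgax, Itgam, Itgb3 and Itgb5), beside 24.0% of all genes tested. The median log2 fold change was 0.07 over the 10 subunits and 0.00 over all genes. The changes were small: among all called genes the median absolute log2 fold change was 0.35, and each of the 3 called subunits was below it. RNA of whole cultures cannot tell fewer cells of a type from less RNA per cell.

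**Figure D1:**
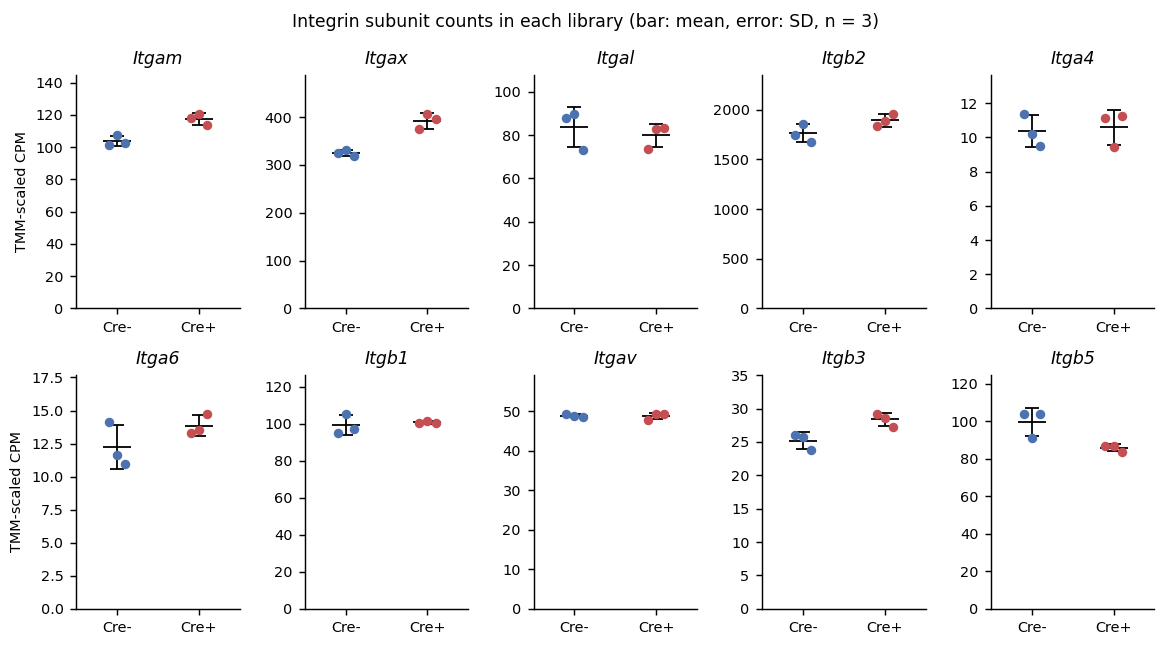
TMM-scaled CPM (vertical axis, from 0) of each of the 10 subunits in 3 Cre- (blue) and 3 Cre+ (red) libraries, with mean and SD. The Itgax points of Cre+ cultures (375 to 407 CPM) all lie above those of Cre- cultures (319 to 331 CPM), whereas the Itgav points cannot be told apart.

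The 4 leukocyte subunits lie on chromosomes 7 and 10 (GRCm38, plus strand): Itgam at chr7:128062640-128118491, Itgax at chr7:128129547-128150657, Itgal at chr7:127296260-127335138 and Itgb2 at chr10:77530252-77565708. Itgam and Itgax are neighbours, 11055 bases apart, and both rose. The next alpha chain, Itgad, begins 3718 bases after Itgax and did not pass the test, as given further on. The RefSeq table of promoter windows (GRCm38.p6) held 6 of the 10 subunits. The windows of the 3 called subunits, 250 bases before to 50 bases after the start in RefSeq, are shown because Itgam and Itgax moved together and Itgb5 moved the other way. The RefSeq start is that of the count tables for Itgam and Itgb5 and lies 3 bases after it for Itgax. Capitals mark matches on either strand to GAGGAA (the core of PU.1 sites), GGGCGG (SP1) or TGACTCA (AP-1).
Itgam, chr7:128062390-128062689, plus strand: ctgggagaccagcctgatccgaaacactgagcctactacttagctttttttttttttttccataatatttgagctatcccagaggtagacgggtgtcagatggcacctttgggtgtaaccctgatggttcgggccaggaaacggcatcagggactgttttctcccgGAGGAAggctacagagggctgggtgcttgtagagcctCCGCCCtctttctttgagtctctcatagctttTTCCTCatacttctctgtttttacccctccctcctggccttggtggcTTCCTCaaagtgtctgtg
Itgax, chr7:128129300-128129599, plus strand: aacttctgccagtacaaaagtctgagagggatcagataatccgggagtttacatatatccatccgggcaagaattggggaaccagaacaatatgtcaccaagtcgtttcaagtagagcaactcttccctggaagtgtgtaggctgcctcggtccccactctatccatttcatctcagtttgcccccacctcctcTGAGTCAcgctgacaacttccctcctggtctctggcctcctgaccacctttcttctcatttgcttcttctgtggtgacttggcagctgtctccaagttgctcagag
Itgb5, chr16:33829415-33829714, plus strand: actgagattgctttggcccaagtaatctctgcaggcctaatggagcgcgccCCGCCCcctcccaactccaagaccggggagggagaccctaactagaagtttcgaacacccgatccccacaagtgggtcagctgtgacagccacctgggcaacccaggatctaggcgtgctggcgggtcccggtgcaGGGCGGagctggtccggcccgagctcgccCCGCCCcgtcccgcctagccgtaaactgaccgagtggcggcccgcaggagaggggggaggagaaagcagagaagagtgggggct
The Itgam window held 3 matches to GAGGAA, a motif in 28.3% of all 32851 windows, and 1 to GGGCGG (35.7% of windows). The Itgax window held only 1 match of the motifs searched, TGACTCA on the minus strand 56 to 50 bases before the RefSeq start, which 5.20% of windows hold. The Itgb5 window held 3 matches to GGGCGG. Among subunits that were not called, GAGGAA also matched in the windows of Itgav and Itgb1, and GGGCGG in those of Itgav, Itgb1 and Itga4. Neither AGGTCA, the core motif of REV-ERB proteins (16.3% of windows), nor the E-box CACGTG (7.15%) was found in any of the 6 windows. A match is a run of letters and not a shown binding site. Only these exact letters were searched, so a variant of a motif would not have been found.

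Itgax encodes CD11c, the alpha chain of complement receptor 4. It stood at 324, 331 and 319 CPM in Cre- replicates 1, 2 and 3 and at 375, 407 and 395 CPM in Cre+ replicates 1, 2 and 3. The lowest Cre+ culture lay above the highest Cre- culture. The means were 325 ± 6.06 and 392 ± 16.5 CPM (SD, n = 3), a 1.21-fold rise. The log2 fold change was 0.27 ± 0.04 (SE, 95% interval 0.18 to 0.37), with an adjusted p of 0.00164. Itgax was called under all 17 alternatives, with log2 fold changes between 0.25 and 0.35 and adjusted p-values of at most 0.0121.

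Itgam encodes CD11b, the alpha chain of complement receptor 3. It stood at 101, 107 and 103 CPM in Cre- and at 118, 121 and 114 CPM in Cre+ replicates 1, 2 and 3. The 3 Cre+ values were again all above the Cre- values, with means of 104 ± 3.25 and 118 ± 3.68 CPM (SD, n = 3). The log2 fold change was 0.18 ± 0.05 (SE, 95% interval 0.08 to 0.29), and its adjusted p of 0.0463 was just inside the threshold. Under the 17 alternatives Itgam kept its direction and was called in 8. It was called in 0 of the 6 fits without 1 library, with adjusted p-values of 0.0638 to 0.147. Gm49368, an annotated gene on the same strand, shares 3450 of the 5024 exon bases of Itgam (68.7%) and held 13 to 39 counts per library. The sources used here do not give how reads on shared bases were assigned, so the level of Itgam, but not its sign, depends on the bases taken as its length.

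Itgb2 encodes CD18, the common beta chain, and had the highest count of the 10 in every library. Its CPM was 1750.1, 1859 and 1681 in Cre- and 1833, 1886 and 1963 in Cre+ replicates 1, 2 and 3, so the groups overlapped. The log2 fold change was 0.10 ± 0.04 (SE), with an adjusted p of 0.199. Itgal encodes CD11a, the alpha chain of LFA-1. Its CPM was 87.9, 90.0 and 73.3 in Cre- and 73.8, 82.8 and 83.1 in Cre+ replicates 1, 2 and 3. Itgal overlapped between the groups and had a log2 fold change of -0.07 ± 0.07 (SE, 95% interval -0.22 to 0.09, adjusted p = 0.684), and the sign turned when scaling factors were taken over all genes (0.01).

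**Figure D2:**
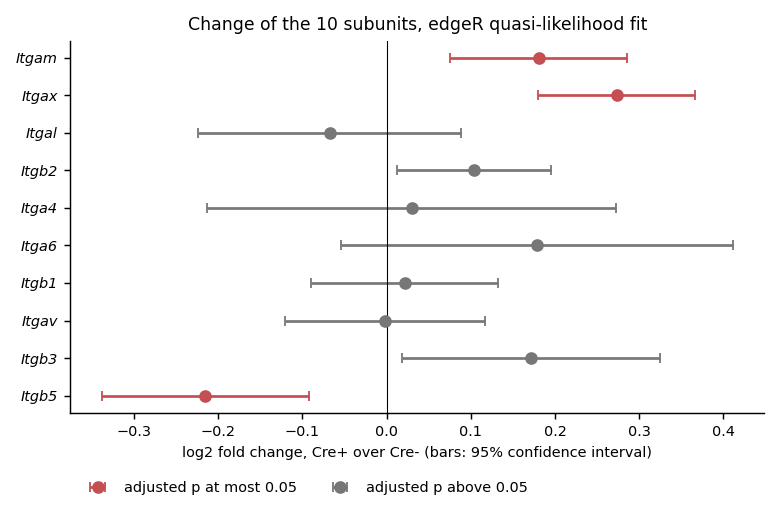
Log2 fold change of Cre+ over Cre- cultures (horizontal axis) for each subunit with its 95% confidence interval from edgeR, with called subunits in red. Itgax has an interval from 0.18 to 0.37, and Itgb5, the only called subunit below 0, one from -0.34 to -0.09.

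The matrix subunits lie on 4 chromosomes: Itga4 at chr2:79255426-79333123, Itga6 at chr2:71745616-71858416, Itgav at chr2:83724397-83806916, Itgb1 at chr8:128685654-128733200, Itgb3 at chr11:104608000-104670476 and Itgb5 at chr16:33829665-33949338, all on the plus strand. Itgb5, the beta chain of the vitronectin receptor alpha V beta 5, stood at 104, 91.2 and 104 CPM in Cre- and at 86.9, 87.1 and 83.8 CPM in Cre+ replicates 1, 2 and 3. All Cre+ values were below the Cre- values, but Cre- replicate 2 was close to them. The means were 99.8 ± 7.39 and 85.9 ± 1.84 CPM (SD, n = 3). The log2 fold change was -0.22 ± 0.06 (SE, 95% interval -0.34 to -0.09), with an adjusted p of 0.0432. Itgb5 was lower in every alternative and called in 7 of the 17. Without Cre- replicate 2 it was called (log2 fold change -0.28, adjusted p = 0.0142), and without any other single library it was not, with adjusted p-values up to 0.146.

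Itgb3, another beta chain of Itgav, is known from osteoclasts and platelets. It stood at 26.0, 25.8 and 23.7 CPM in Cre- and at 29.2, 28.6 and 27.3 CPM in Cre+ replicates 1, 2 and 3. These groups did not overlap either, with the Cre+ values on top. The log2 fold change of 0.17 ± 0.07 (SE) had an adjusted p of 0.202, so Itgb3 was not called. Itgav, which pairs with Itgb1, Itgb3 and Itgb5, had 49.4, 48.8 and 48.6 CPM in Cre- and 47.9, 49.3 and 49.3 CPM in Cre+ replicates 1, 2 and 3. The values overlapped throughout, and the 95% interval of its log2 fold change ran from -0.12 to 0.12.

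Itgb1, the beta chain with the widest range of partners, had 95.02, 105 and 97.3 CPM in Cre- and 100.2, 101 and 100.4 CPM in Cre+ replicates 1, 2 and 3. All Cre+ values fell within the range of Cre- values, and the 95% interval of the log2 fold change was -0.09 to 0.13. Itga6, a laminin receptor chain, had 14.2, 11.7 and 10.9 CPM in Cre- and 13.3, 13.5 and 14.8 CPM in Cre+ replicates 1, 2 and 3. Cre- replicate 1 stood among the Cre+ values, and the log2 fold change of 0.18 ± 0.11 (SE) had an adjusted p of 0.412. Itga4, the alpha chain of the VCAM-1 receptor VLA-4, had 11.4, 10.2 and 9.52 CPM in Cre- and 11.1, 9.42 and 11.2 CPM in Cre+ replicates 1, 2 and 3. The groups overlapped, and the 95% interval of -0.21 to 0.27 was the widest of the 10. Itga4 also had the lowest count of the set in a library, 852.

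Levels were compared between subunits only per length, as TMM-scaled counts per kilobase of merged exons (CPM per kilobase). Itgb2 was highest, at 578 ± 29.3 in Cre- and 621 ± 21.4 in Cre+ cultures (SD, n = 3). Itgax followed at 67.6 ± 1.26 and 81.7 ± 3.43. Itgb5 (28.1 ± 2.08 in Cre-), Itgb1 (24.3 ± 1.32) and Itgam (20.6 ± 0.646) came next, and over the 6 libraries the range of Itgb1 met those of both. Then came Itgal (12.7 ± 1.39), Itgav (4.55 ± 0.0382) and Itgb3 (4.27 ± 0.213), of which Itgav and Itgb3 had overlapping ranges. Itga6 (1.34 ± 0.185) and Itga4 (0.742 ± 0.0678) were lowest and apart from each other. On exon bases that no other gene shares, a length chosen after the overlap with Gm49368 was seen, Itgam came to 65.9 ± 2.06 in Cre- cultures, next to Itgax and with a range that met it. Gm49368 held 13 to 39 counts per library and Itgam 8795 to 12956, so hardly any reads on shared bases were counted for both genes. If such reads were dropped, the unshared length is the one that applies to Itgam. Both lengths are given because the share of Itgam reads that lies on the 1574 unshared bases is not in the counts.

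**Figure D3:**
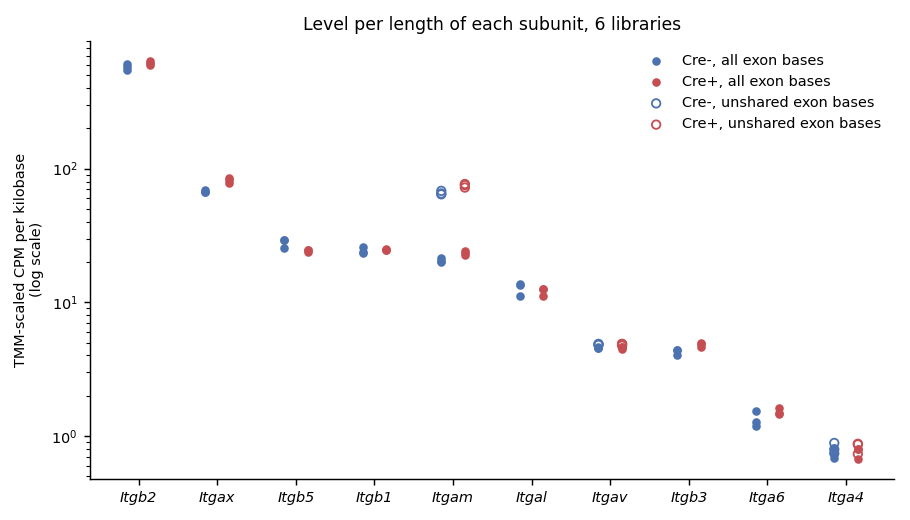
TMM-scaled CPM per kilobase (log axis) of each subunit in 3 Cre- (blue) and 3 Cre+ (red) libraries, ordered by the Cre- mean. Open circles use only exon bases shared with no other gene, which moves Itgam from 20.6 to 65.9 in Cre- cultures and leaves the order of the other 9 as it was.

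Per length, the common chain Itgb2 exceeded the sum of Itgam, Itgax and Itgal 5.62 to 5.86 times in Cre- and 5.09 to 5.47 times in Cre+ cultures. With unshared bases the excess was 3.86 to 4.04 times and 3.55 to 3.85 times. Itgax made up 66.3% to 67.8% of the sum of the 3 alpha chains in Cre- and 69.2% to 70.0% in Cre+ cultures. Itgal made up 11.4% to 13.3% and 9.96% to 10.8%. With unshared bases Itgax was no longer the majority, at 45.7% to 46.5% in Cre- and 47.5% to 49.2% in Cre+ cultures, and Itgam was close to it, at 44.3% to 45.7% and 43.2% to 45.7%. On either length the Cre+ shares of Itgax were all above, and those of Itgal all below, the Cre- shares. The 3 shares of a library make up a whole, so a rise of Itgax alone lowers the others. The CPM of Itgal itself overlapped between the groups.

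Within a library the ratio of an alpha to a beta count does not depend on how libraries are scaled, and 8 pairs known to form heterodimers were compared. In 3 of the 8 the groups did not overlap: Itgax over Itgb2, Itgav over Itgb3 and Itgav over Itgb5. Set against the same beta count, the groups did not overlap for 24.9% of all other genes tested with Itgb2, 36.8% with Itgb3, 43.4% with Itgb5 and 19.4% with Itgb1, shares computed after the data were seen. For 3 against 3 libraries an exact two-sided permutation test cannot give a p below 0.1, and the adjusted p over the 8 pairs was 0.267 for each of these, so no pair could be called. The log2 ratio of Itgax to Itgb2 was -2.43, -2.49 and -2.40 in Cre- and -2.29, -2.21 and -2.31 in Cre+ replicates 1, 2 and 3. Each Cre+ culture thus held more Itgax per Itgb2 count than any Cre- culture, by 0.17 on the log2 scale on average, and by 0.14 to 0.19 when any 1 library was left out (exact p = 0.1).

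The log2 ratio of Itgav to Itgb5 averaged -1.02 ± 0.11 in Cre- and -0.81 ± 0.05 in Cre+ cultures (SD, n = 3), a difference of 0.21. The ratio of Itgav to Itgb3 went the other way, from 0.96 ± 0.07 to 0.79 ± 0.07, a difference of -0.17. Both had an exact permutation p of 0.1. Itgal over Itgb2 differed by -0.17 and Itgam over Itgb2 by 0.08, with overlapping groups and an exact permutation p of 0.2 each. For Itga4, Itga6 and Itgav over Itgb1 the differences were 0.01, 0.16 and -0.03, with overlapping groups. Without Cre- replicate 2 they were -0.05, 0.09 and -0.07, and without Cre- replicate 1 they were 0.11, 0.30 and 0.01, the lowest and highest values when 1 library was left out.

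**Figure D4:**
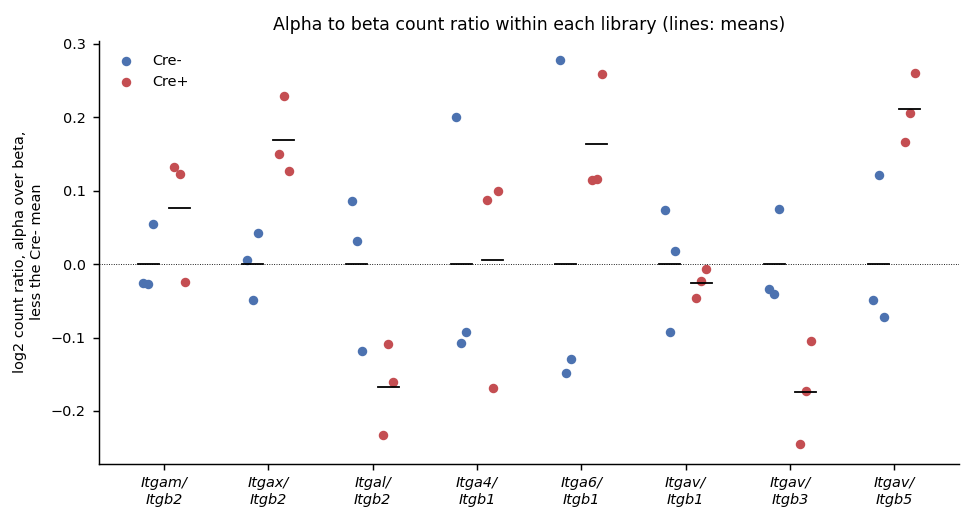
Log2 ratio of alpha to beta counts within each library, less the Cre- mean of the pair (vertical axis), for 8 pairs in 3 Cre- (blue) and 3 Cre+ (red) libraries, with lines for the means. The groups do not overlap for Itgax/Itgb2 (difference 0.17), Itgav/Itgb3 (-0.17) and Itgav/Itgb5 (0.21).

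The rest of the integrin system was followed in 5 lists of 108 genes, of which 68 were tested and 6 called, 3 higher and 3 lower. Over all genes tested the share called was 5.07%, which stands beside the count of each list below. Of the 17 other subunits, 2 were tested. Itga5, the alpha chain of the fibronectin receptor, stood at 197 to 212 CPM in Cre- and 201 to 221 CPM in Cre+ cultures, with a log2 fold change of 0.03 ± 0.05 (SE). Per length, Itga5 was at 41.6 ± 1.49 in Cre- cultures, well above Itgav, Itga6 and Itga4 among the alpha chains that pair with Itgb1. Itgad, the neighbour of Itgax, stood at 1.57 to 2.16 CPM in Cre- and 1.45 to 2.05 CPM in Cre+ cultures (log2 fold change -0.08 ± 0.22, SE). The other 15 never reached 1 CPM, and all 15 had a lower mean in Cre+ cultures, as did 78.1% of the 10309 untested genes in the same range of means.

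Of 24 activators and actin linkers, 21 were tested and 1 was called. Actn1, an actinin that ties integrin tails to actin, rose from 78.0 ± 2.63 to 90.0 ± 3.48 CPM (SD, n = 3), with a log2 fold change of 0.21 ± 0.05 (SE) and an adjusted p of 0.0350. Dok1, an adaptor that binds beta tails (log2 fold change 0.21, adjusted p = 0.0783), and Rapgef1, an exchange factor for RAP1 (-0.28, adjusted p = 0.0824), had no overlap between the groups but were not called. Overlap was also absent for 24.0% of all genes tested. The median of the list was 0.01.

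Of 21 signalling genes, 19 were tested and 1 was called, with a median log2 fold change of 0.00. Rac2, the RAC GTPase of blood cells, stood at 450, 494 and 465 CPM in Cre- and 553, 500 and 545 CPM in Cre+ replicates 1, 2 and 3. Its groups did not overlap, although Cre- replicate 2 and Cre+ replicate 2 nearly met, and the log2 fold change was 0.18 ± 0.05 (SE) with an adjusted p of 0.0432. Tyrobp, the adaptor DAP12 (-0.11, adjusted p = 0.123), and Rhoa (0.11, adjusted p = 0.164) were not called.

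Of 36 ligands and counter-receptors, 16 were tested and 1 was called. Mfge8, which links Itgav pairs to phosphatidylserine on dying cells, rose from 5607, 5648 and 5326 CPM in Cre- to 5931, 6289 and 6586 CPM in Cre+ replicates 1, 2 and 3. The log2 fold change was 0.18 ± 0.04 (SE), with an adjusted p of 0.0171. Thbs1, thrombospondin 1 (-0.58, adjusted p = 0.0927), and Edil3, another ligand of Itgav pairs (-0.56, adjusted p = 0.103), were lower without overlap but not called. In either direction, 24.0% of all genes tested had no overlap. The median of the tested ligands was -0.05.

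Of 10 membrane proteins that associate with integrins, all were tested and 3 were called, each lower, beside 2.56% of all genes tested that were called lower. Cav1, caveolin 1, stood at 45.8, 42.6 and 43.7 CPM in Cre- and 28.4, 26.2 and 30.1 CPM in Cre+ replicates 1, 2 and 3. No Cre+ culture came near a Cre- culture, and the log2 fold change was -0.64 ± 0.07 (SE). Cd47, a partner of Itgav-Itgb3 and the ligand of SIRPα, fell from 133 ± 0.909 to 116 ± 3.70 CPM (adjusted p = 0.0217). Bsg, basigin, fell from 375 ± 11.5 to 335 ± 7.69 CPM (adjusted p = 0.0350). Cav1 was called in all 6 fits without 1 library, Mfge8 in 3, Rac2 and Cd47 in 2 each, and Actn1 and Bsg in 1 each.

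Markers of other cell types that carry integrins summed to far less than those of microglia. A few of them stood at the level of the lower subunits. The 13 genes of lymphocytes, neutrophils and mast cells summed to 9.58 to 12.7 CPM in Cre- and 7.43 to 8.58 CPM in Cre+ cultures. S100a8 made up most of this, and 12 of the 13 never reached 1 CPM, among them Ly6g and S100a9 with at most 0.0460 and 0.00992 CPM. The 6 endothelial markers summed to 20.9 to 22.9 and 24.4 to 27.9 CPM, nearly all of it Flt1, with Cldn5 at no more than 0.0460 CPM. Flt1 itself was called higher in Cre+ cultures (log2 fold change 0.33 ± 0.08, SE, adjusted p = 0.0245), a change in size above those of the 3 called subunits. The 8 fibroblast and mural markers summed to 1.84 to 2.83 and 0.972 to 1.23 CPM, and all 8 stayed under 1 CPM. The 8 astrocyte, 8 oligodendrocyte and 7 neuron markers had sums of 13.1 to 14.4, 83.7 to 92.8 and 2.91 to 3.86 CPM in Cre- and 11.5 to 15.1, 80.9 to 85.7 and 2.07 to 2.17 CPM in Cre+ cultures. Cspg4 (41.1 to 50.6 CPM over the 6 libraries) and Mbp (25.4 to 33.4 CPM) made up most of the oligodendrocyte sums. Neither was called by edgeR, with log2 fold changes of -0.15 (adjusted p = 0.210) and 0.01 (adjusted p = 0.984). The part of such cells in the changes of the subunits was not tested.

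**Figure D5:**
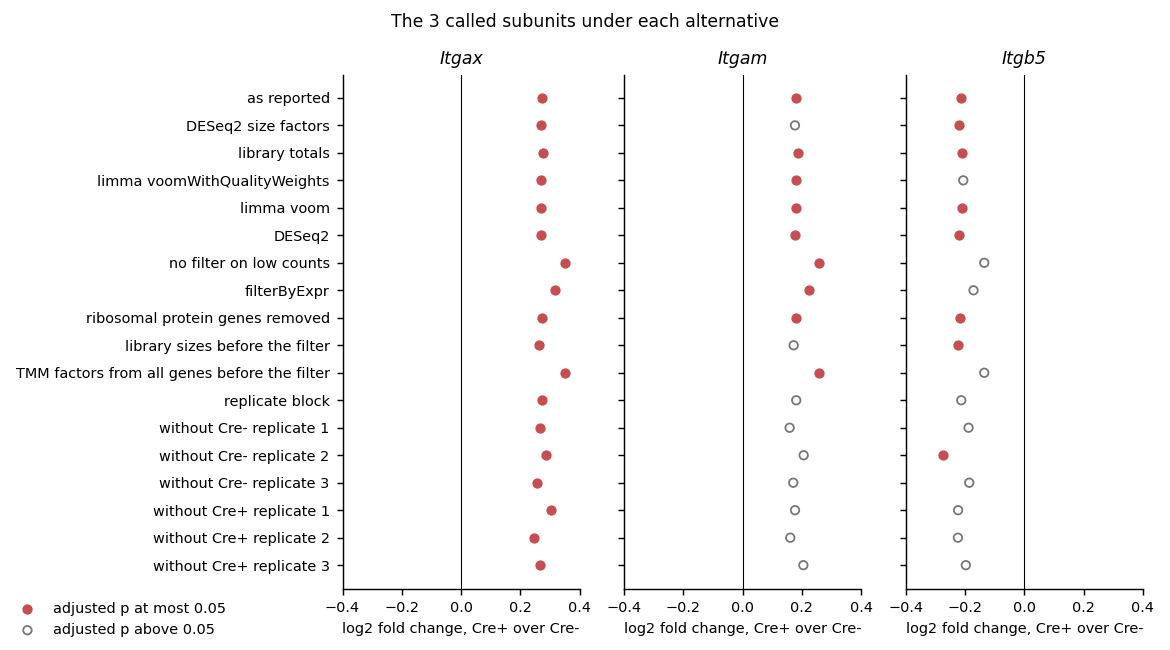
Log2 fold change (horizontal axis) of the 3 called subunits as reported and under 17 alternatives (rows), with filled red points for an adjusted p of at most 0.05. Itgax is filled in every row, Itgam in 8 of the 17 alternatives and Itgb5 in 7, and no point changes sides of 0.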

How the data were processed

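RNA from 3 Cre- and 3 Cre+ microglia cultures was amplified and sequenced by the authors, with alignment to GRCm38 by STAR and featureCounts totals for each Ensembl gene. The labels and the methods of the paper name different versions of both, and the strand setting is not given in the sources used here. The counts, as deposited, are whole reads per gene without filter or normalization. The CPM values deposited by the authors are these counts over the library total, and the FPKM values deposited by the authors are CPM per kilobase of exons. Both were used only to check the counts. Symbols and biotypes came from GENCODE M21, which matched 55227 of 55487 identifiers.

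Ribosomal RNA genes (356) were dropped. The 11429 genes that exceeded 1 CPM in 4 or more libraries entered edgeR 4.0.16 (quasi-likelihood, TMM, no covariates, library sizes over the genes tested) in R 4.3.3, and p-values were adjusted over all of them by Benjamini-Hochberg. SE is the log2 fold change over the square root of F. The common dispersion of 0.01002 is a variation between cultures of 10.0%. Ratios were tested by exact permutation in scipy 1.17.1. The test was checked on simulated data with known changes. Pairs of libraries of 1 group differed more than counting noise (chi-square per degree of freedom 18.8 to 25.9), and each library was counted as 1 replicate. blastn 2.17.0 (at least 95% identity over 100 bases) matched 5 subunits to a transcript of another gene, the longest match being Itgam to Gm49368 (3453 bases), followed by Itga4 to Cerkl (908), Itgb5 to Gm38317 (343), Itga6 to Gm29397 (326) and Itgb2 to Gm14699 (228).

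All 10 subunits, the called genes of each related list (or up to 3 of smallest p) and Nr1d1 are named. The members and lists were chosen with earlier results of these data known. Alternatives were other scalings, tests (limma 3.58.1, DESeq2 1.42.0), filters, a threshold of 0.1, a replicate block and each library left out.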

Additional observations from a re-analysis of the deposited data

How the results depend on the processing

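Of 17 alternatives to the fit, 2 (library sizes before the filter, and TMM factors from all genes before the filter) were added after seeing the data. Subunits called higher (2 as reported) numbered 1 with DESeq2 size factors, library sizes before the filter or the replicate block, 4 with TMM factors from all genes, and 1 without any 1 library. Subunits called lower (1 as reported) numbered 0 with voomWithQualityWeights, no filter, filterByExpr, TMM factors from all genes or the replicate block, and 0 to 1 without 1 library (1 without Cre- replicate 2). The adjusted p in these cases was 0.0569, 0.058 and 0.0894 for Itgam, and 0.0545, 0.351, 0.111, 0.171 and 0.0805 for Itgb5. All genes called (579, 286 higher and 293 lower) numbered 886 with DESeq2, 1528 without a filter, 1012 with TMM factors from all genes (829 higher and 183 lower, the median over all genes moving by 0.08) and 321 to 435 without 1 library (321, 337 and 382 without Cre+ replicate 3, Cre- replicate 3 and Cre+ replicate 2). Genes called in the related lists (6) numbered 10 with DESeq2, 15 without a filter, 10 with TMM factors from all genes, 2 with the replicate block and 1 to 5 without 1 library (1 without Cre- replicate 3 or Cre+ replicate 3, 2 without Cre+ replicate 2, 3 without Cre- replicate 2). TMM factors from all genes also called Itgb2 (0.18, adjusted p = 0.0467) and Itgb3 (0.25, adjusted p = 0.049), and no filter called Itgb2 (0.18, adjusted p = 0.017).

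Signs turned only for subunits that were not called: Itgav (0.0022 with library totals, 0.0764 without a filter, 0.0405 with filterByExpr, 0.0764 with TMM factors from all genes, and -0.00927 to 0.0115 without 1 library), Itgal (0.0109 without a filter, 0.0108 with TMM factors from all genes), Itgb1 (-0.0131 to 0.0658 without 1 library) and Itga4 (-0.0301 to 0.107 without 1 library). The cause was not tested. Same-numbered cultures did not deviate together (r = 0.00667, -0.0334 and -0.0556), so the numbers were not taken as a pairing, and the replicate block left 430 genes called in all. Without 1 library no ratio moved by more than the larger of the SDs of its groups, although Itga4 over Itgb1 and Itgav over Itgb1 changed sign.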

Other observations

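A few ratios outside the 8 heterodimers were looked at after the values were seen and are given as a description, with no test. The log2 ratio of Itgb3 to Itgb5, the beta chains that share Itgav, was -2.00, -1.82 and -2.13 in Cre- and -1.57, -1.61 and -1.62 in Cre+ replicates 1, 2 and 3. The groups did not overlap, and Cre+ cultures held more Itgb3 per Itgb5 count by 0.38 on average and by 0.31 to 0.47 when any 1 library was left out. Set against the Itgb5 count, the groups did not overlap for 43.4% of all other genes tested. The log2 ratio of Itgax to Itgal, alpha chains that share Itgb2, was 1.88, 1.88 and 2.12 in Cre- and 2.34, 2.30 and 2.25 in Cre+ replicates 1, 2 and 3. The Itgax to Itgal ratio was higher in each Cre+ culture than in any Cre- culture, by 0.34 on average. The share of all genes without overlap was not computed against Itgal. The ratio of the neighbours Itgax and Itgam differed by 0.09, with overlapping groups.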
